A study of Mus musculus with 16 samples.

Results

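The genes described here are the classical cyclins of the cell cycle in mouse testis: the D-type cyclins Ccnd1, Ccnd2 and Ccnd3, the E-type cyclins Ccne1 and Ccne2, the A-type cyclins Ccna1 and Ccna2, and the B-type cyclins Ccnb1, Ccnb2 and Ccnb3. They were found by matching each gene ID of the deposited tables to its symbol, which gave 10 genes of the 55414 gene IDs measured. All 10 had reads in every library and passed the filter on low values in every comparison. Ccna1 had the fewest reads, 7 to 130 in a library, and the other 9 genes had between 188 and 3605.

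Cyclins bind and activate cyclin-dependent kinases (CDKs), and their rise and fall orders the phases of the cell cycle. D-type cyclins work with CDK4 and CDK6 in G1, E-type cyclins with CDK2 at the start of S phase, A-type cyclins with CDK2 and CDK1 in S and G2, and B-type cyclins with CDK1 at the entry into M phase. In the testis, spermatogonia divide by mitosis, replicate their DNA a last time and then pass through a long meiotic prophase, during which some cyclins of the mitotic cycle are shut off and germline forms such as cyclin A1 are turned on. YTHDC2 is an RNA helicase that acts with MEIOC at the start of meiosis, and the transcript of Ccna2 is a known target of that complex.

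The study measured total RNA of whole testes at postnatal days 14 and 16 (P14 and P16), when the first wave of spermatocytes is in meiotic prophase, by RNA sequencing after removal of ribosomal RNA. Mice with a conditional knockout of Ythdc2 (cKO) were compared with control mice, headed WT in the deposited data. In a second set they were compared with mice labelled Cre control. The labels do not say whether the WT controls carried Cre. Against them, effects of Cre and of the loss of Ythdc2 therefore cannot be told apart. Tamoxifen, which switches on an inducible Cre recombinase, was given at 10 mg/ml on P12 and P13 in all groups, so every testis was collected after the same treatment. The 16 libraries came from 2 ribosomal RNA depletion kits that run with the control type. No sequencing run held libraries of both kits, so kit and run cannot be told apart, and a kit covariate below stands for both. No control type was made with both kits. Where both control types enter a fit, the kit covariate therefore also takes in any difference between them. Ribo-Zero (the first kit here) was used for 2 control and 2 cKO libraries at each stage. All Cre controls (2 for P14 and 4 for P16) were instead made after depletion with NEBNext reagents (the second kit here), as was cKO library 3 at both ages. The Cre driver and the Ythdc2 alleles are not given in the sources used here, and the labels do not say whether each library is a separate animal. P-values therefore measure the spread between these libraries, which may be technical. Libraries of the first kit held 22220565 to 27531529 reads assigned to genes, and those of the second kit 14494867 to 23200252. The knockout was visible in every library: at P16 the normalised count of Ythdc2 was 2609 and 2666 in control and 502 and 541 in cKO (log2 change -2.34, SE 0.06), and at P14 it was 2027 and 2262 against 658 and 753 (-1.60, SE 0.09). In the second kit the third cKO library had 323 normalised counts of Ythdc2 at P14 against 1352 and 1454 in Cre control, and 226 at P16 against 1392 to 2633.

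Promoter sequence is shown for Ccnb1 and Ccnb2, which rose together at P16, and for Ccna1, the cyclin with the largest change between the stages. Each run is the 250 bases before a transcription start in RefSeq (build GRCm38.p6, minus strand for all 3 genes), written 5′ to 3′ in the direction of transcription. Capitals mark matches on either strand to letters typical of cell cycle promoters: CCAAT (the box bound by NF-Y), TTTGAA (a form of the cell cycle homology region), TTNNCGC (a core of E2F sites) and AACNGNC (a core of MYB sites). The windows are chr13:100786487-100786736 for Ccnb1, chr9:70421555-70421804 for Ccnb2 and chr3:55055056-55055305 for Ccna1.
Ccnb1: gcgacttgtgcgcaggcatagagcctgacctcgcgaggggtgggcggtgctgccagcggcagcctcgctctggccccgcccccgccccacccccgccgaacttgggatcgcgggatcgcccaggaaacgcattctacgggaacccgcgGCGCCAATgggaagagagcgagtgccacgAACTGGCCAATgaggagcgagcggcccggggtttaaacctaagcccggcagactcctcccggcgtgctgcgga
Ccnb2: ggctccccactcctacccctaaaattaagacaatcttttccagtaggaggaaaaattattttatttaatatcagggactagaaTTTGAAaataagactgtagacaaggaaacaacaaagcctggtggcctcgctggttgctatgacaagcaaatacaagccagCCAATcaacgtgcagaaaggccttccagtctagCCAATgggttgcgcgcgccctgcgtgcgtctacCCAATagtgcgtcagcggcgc
Ccna1: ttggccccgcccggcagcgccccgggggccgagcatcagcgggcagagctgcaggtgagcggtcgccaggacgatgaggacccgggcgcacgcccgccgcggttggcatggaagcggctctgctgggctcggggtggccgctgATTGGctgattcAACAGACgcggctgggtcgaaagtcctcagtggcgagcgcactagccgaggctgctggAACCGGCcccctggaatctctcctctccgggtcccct
The Ccnb2 window held 3 CCAAT boxes, with first bases 87, 54 and 21 bases before the start, and 1 TTTGAA, 167 bases before it. Ccnb1 had 2 CCAAT boxes, 99 and 67 bases before the start; the first of them overlaps an E2F core and the second a MYB core, so each pair reads as 1 run of capitals. The Ccna1 window had 1 CCAAT box, on the opposite strand, and 2 MYB cores. Windows were at hand for 6 of the cyclin genes, 7 windows in all. A CCAAT box stood in those of Ccna1, Ccnb1 and Ccnb2 and in 1 window of Ccnd3. An E2F core stood in those of Ccnb1 and Ccnb3, and a MYB core in those of Ccna1, Ccnb1 and Ccnb3. The window of Ccne1 and the other window of Ccnd3 held none of these letters. Among all 32851 windows of this length, 33.85% held CCAAT, 15.99% TTTGAA, 17% the E2F core and 27.7% the MYB core. A match is a description of the letters and not a measured binding site.

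Levels were compared between genes in RPKM, computed from the recovered reads as reads per kilobase of exon scaled to each library's gene reads. The length was that of all annotated exons of a gene merged, not that of the transcript expressed. The order, ratios and shares of genes below depend on that choice. Ccnb2 has 1531 such bases and Ccnb1 4217, while their reads in control at P16 were 1783 and 1932 against 1634 and 1695. Ccnb2, a CDK1 partner that mice can do without, had the highest level of the 10 in every group and in both kits. In control at P16 the order was Ccnb2 (46.2 ± 0.55, SD, n = 2), Ccne2 (37.1 ± 0.55), Ccnd1 (17.7 ± 0.82), Ccna2 (15.3 ± 0.58), Ccnb1 (15.1 ± 0.64), Ccnb3 (12.3 ± 1.5), Ccnd2 (7.56 ± 0.72), Ccne1 (6.33 ± 0.19), Ccnd3 (2.69 ± 0.20) and Ccna1 (1.84 ± 0.036), all on this per-length scale with n = 2. Only Ccna2 and Ccnb1, neighbours in that order, had overlapping libraries. Within each type, 1 form was thus well above its partners in these 2 control libraries at P16. Ccnb2 was 3.01- and 3.14-fold above Ccnb1, Ccne2 5.68- and 6.05-fold above Ccne1, and Ccna2 8.21- and 8.43-fold above Ccna1. In Cre control at P16 no D-type form led clearly: Ccnd1 (14.3 ± 1.2, SD, n = 4) overlapped Ccnd2 (13.1 ± 1.7). Ccna1 was the lowest of the 10 in every group and also the most variable, spanning 18.9-fold over all 16 libraries on the per-length scale, against 1.64-fold for Ccnb1 and at most 2.80-fold (Ccnd1) for the other 9.

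**Figure D1:**
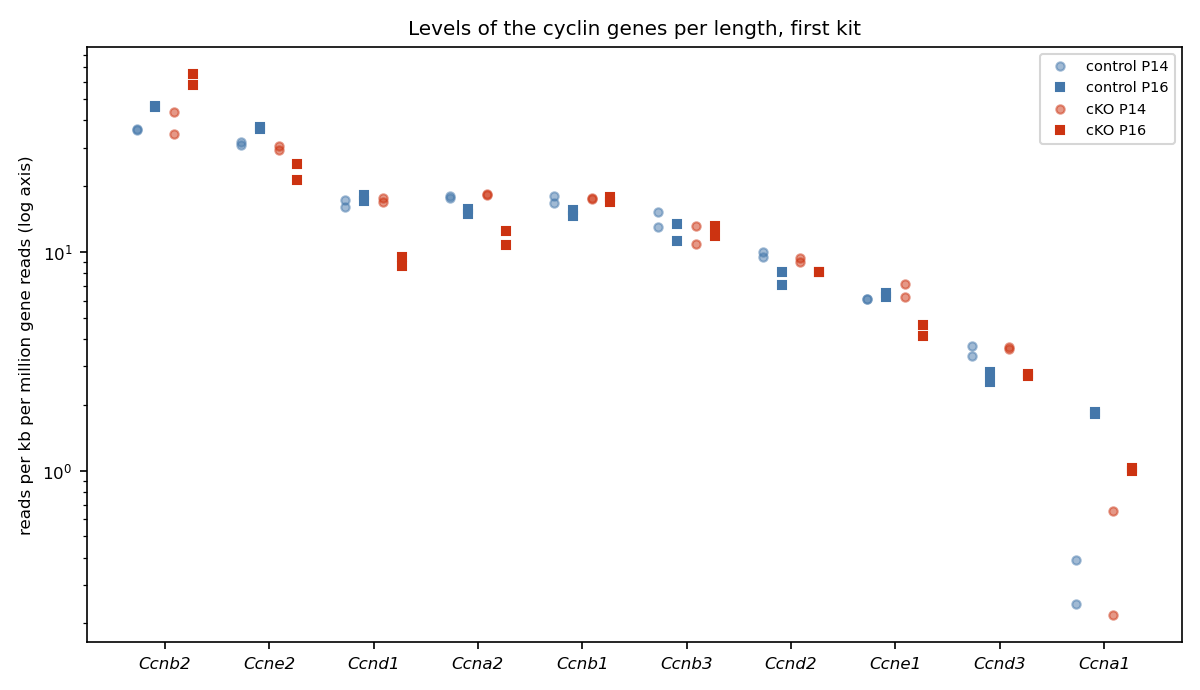
Level of each cyclin gene per length (RPKM over gene reads, log axis) in the 8 libraries of the first kit, 1 point per library, with genes ordered by their mean in control. Ccnb2 stands highest at 36.2 to 46.6 in control, Ccna1 lowest, and Ccnd1 drops from 17.1 and 18.3 in control to 8.62 and 9.49 in cKO at P16.

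The make-up of the cyclin pool differed between genotypes at P16. Ccnb2 made up 28.5% ± 0.34 (SD, n = 2) of the summed per-length level of the 10 genes in control and 40.6% ± 0.72 in cKO. Ccne2 made up 22.9% ± 0.34 and 15.3% ± 0.87, and Ccnd1 10.9% ± 0.51 and 5.97% ± 0.029, in the same libraries. As ratios per length, Ccnb2 over Ccna2 was 3.14 and 2.92 in control against 5.39 and 5.22 in cKO. Ccnd2 over Ccnd1 was 0.411 and 0.441 in control against 0.945 and 0.850 in cKO. These values describe the libraries of the first kit; in the second kit at P16 the share of Ccnb2 was 34.9% on average over 4 Cre control libraries and 34.6% in the third cKO library, so that difference was not seen there. The ratio of Ccnd2 to Ccnd1 was 1.19 in the third cKO library and 0.819 to 1.02 in Cre control.

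**Figure D2:**
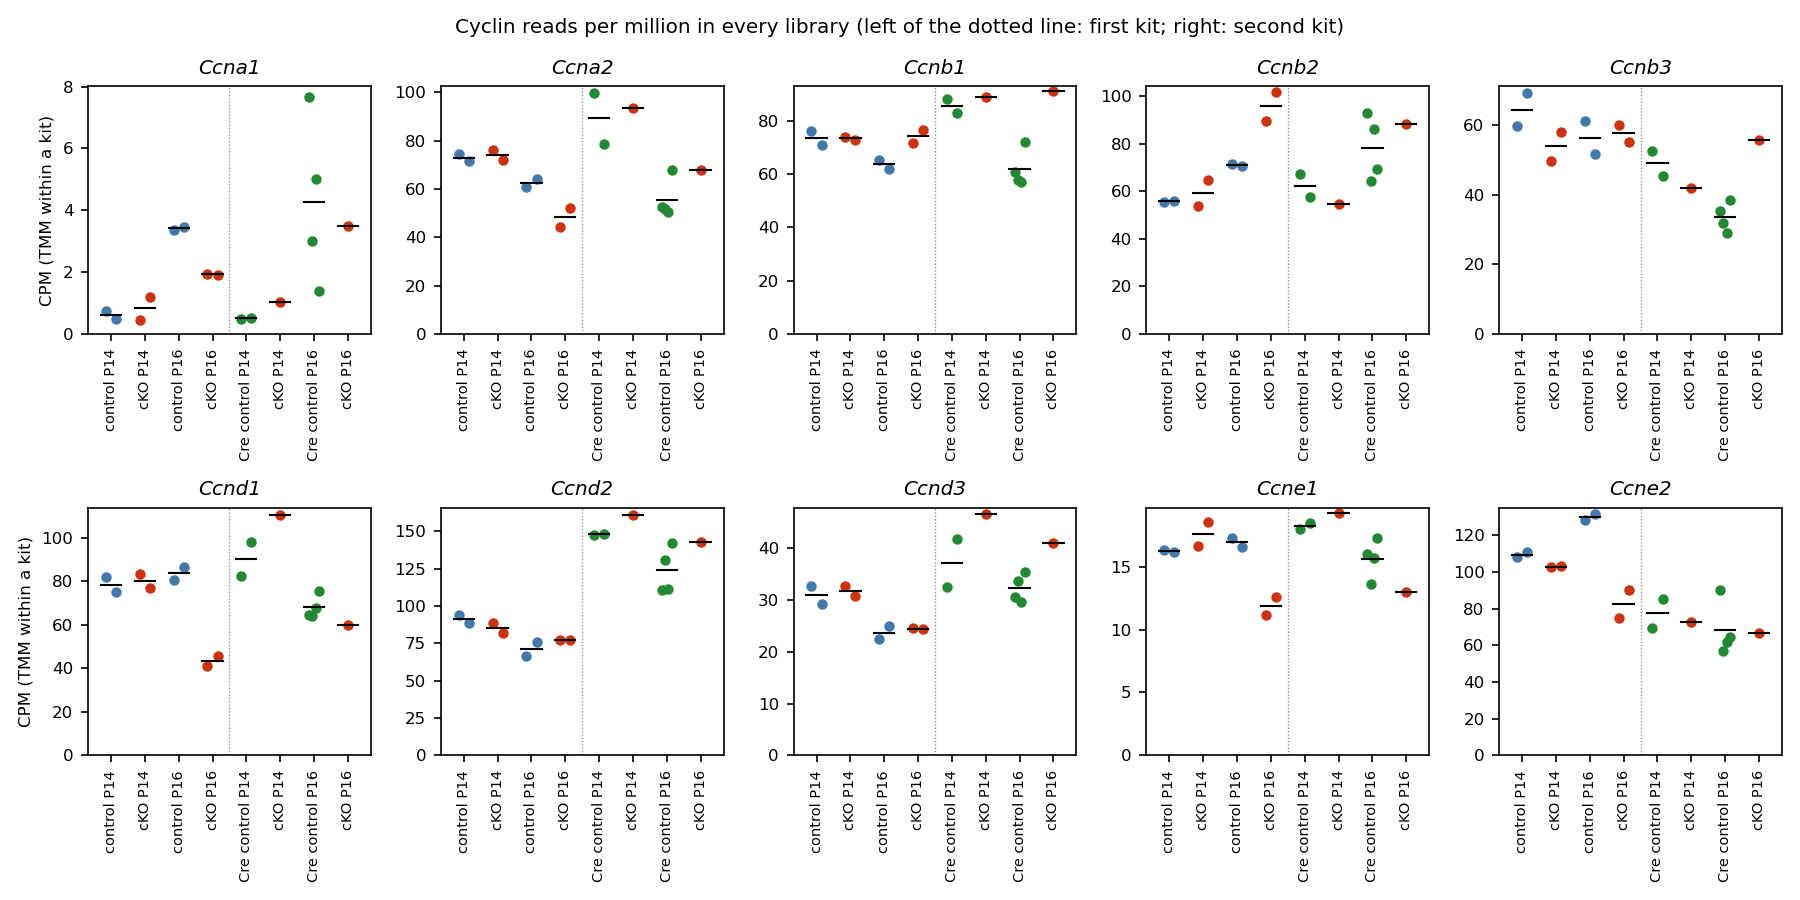
Reads scaled to library size (CPM, TMM scaling within a kit; linear axes from 0) of each cyclin gene in all 16 libraries, 1 point per library and a bar at each group mean, with the first kit left and the second kit right of the dotted line. In the first kit Ccnd1, Ccne1, Ccne2, Ccna1 and Ccna2 sit lower and Ccnb1 and Ccnb2 higher in cKO than in control at P16; in the second kit the third cKO library lies below all 4 Cre controls at P16 for Ccnd1 and Ccne1 and above them for Ccnb1, Ccnb3, Ccnd3 and, narrowly on this scale, Ccnd2 (143.0 against at most 142.6).

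The first comparison asks whether the cyclins differed 1 day after the second tamoxifen dose, at P14. None of the 10 was called against control (limma, adjusted p under 0.05 over all genes tested), where 0.00579% of the genes tested were called, a single gene, Ythdc2 itself. The median log2 change of the 10 was 0.03, beside 0.01 for all 17270 genes tested, and by an unadjusted p of under 0.05 only Ccnb3 would have counted, among 410 genes. Ccnb3, a cyclin of early meiotic prophase, had normalised counts of 1436 and 1674 in control and 1203 and 1404 in cKO (log2 change -0.25, SE 0.10, unadjusted p 0.0452, limma adjusted p 0.9997). For Ccna2, the known target of the YTHDC2 complex, the counts were 1784 and 1727 in control and 1835 and 1739 in cKO, a log2 change of 0.03 (SE 0.06). Those groups overlapped. edgeR and DESeq2 on the recovered reads also called 0 of the 10 at P14. Against Cre control at P14 no cyclin was called either, in a comparison where 0% of genes were called by limma, 5 by DESeq2, and 705 had an unadjusted p under 0.05; there the median log2 change of the 10 was 0.04, beside -0.01 for all genes.

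At P16 cyclins differed from control in both directions. Against control, 7 of the 10 were called where 38.6% of all genes tested were: 5 were lower (19.9% of all genes were called lower) and 2 were higher (18.6% called higher). Ccnd1, Ccne1, Ccne2, Ccna1 and Ccna2 fell, Ccnb1 and Ccnb2 rose, and Ccnd2, Ccnd3 and Ccnb3 did not pass. The median log2 change of the 10 was -0.18, beside -0.000495 for all 17986 genes tested. RNA was measured in whole testis, so fewer cells of a type and less RNA per cell cannot be told apart in any of these values. The cell type markers moved between these same libraries: 8 of the 9 spermatogonial markers tested fell, their summed normalised count being 19502 and 19717 in control and 14810 and 14540 in cKO, and 9 of 10 early meiotic markers fell (59929 and 57519 against 42020 and 45212). Of 10 pachytene markers 5 rose and 1 fell (45955 and 46417 against 48478 and 53982), and 5 of 8 Sertoli and 4 of 5 macrophage markers rose (sums of 23693 to 23997 against 26319 to 29938, and of 2257 to 2359 against 2982 to 3011). Of the other lists 2 of 5 Leydig, 1 of 4 peritubular myoid and 1 of 3 endothelial markers rose and 0 of 3 erythroid markers passed; the Leydig marker Insl3 was listed at 0 in a library. At P14 none of these markers was called. The part of the markers in the cyclin changes was not tested.

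Of the 3 D-type cyclins Ccnd1 passed the test. Ccnd1, which links growth signals to CDK4 and CDK6, had normalised counts of 2096 and 2243 in control and 1061 and 1165 in cKO at P16. Both cKO libraries were far below both controls, and the log2 change was -0.96 (SE 0.06, limma adjusted p 2.75e-07), the largest fall of the 10. Ccnd2, the D-type cyclin of spermatogonia about to differentiate, had 1723 and 1975 in control and 1979 and 2002 in cKO, or 0.11 as a log2 change (SE 0.06, limma adjusted p 0.187). Ccnd3 had 581 and 647 against 621 and 636 (0.04, SE 0.08), with overlapping groups. Exons of Ccnd1 overlap those of LTO1 on the other strand by 1100 bases, and whether the counting used strand is not given in the sources used here; LTO1 itself fell by 0.25 on the log2 scale (SE 0.08, limma adjusted p 0.0218).

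Both E-type cyclins fell at P16. Ccne2, the more abundant one per length and a gene whose loss impairs male fertility in mice, had normalised counts of 3329 and 3408 in control and 1947 and 2302 in cKO (log2 change -0.67, SE 0.07, limma adjusted p 1.07e-05). Ccne1 had 447 and 429 in control and 287 and 321 in cKO (-0.53, SE 0.09, limma adjusted p 0.000676). No control library overlapped a cKO library for either gene. With 2 libraries a side this is weak evidence, here and for the genes below. It also held at P16 for Ccnd2, which was not called, and its share over all genes is not given here. Ints8, whose exons overlap those of Ccne2 by 609 bases on the other strand, fell by 0.53 on the log2 scale (SE 0.05, limma adjusted p 7.09e-06). Where counting ignores strand, reads in those shared bases cannot be assigned to either gene. Whether such reads were left out or counted is not given in the sources used here.

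Both A-type cyclins fell as well. Ccna1, a germline cyclin needed for the exit of spermatocytes from meiotic prophase, had normalised counts of 86.2 and 88.9 in control and 49.5 and 47.6 in cKO, or -0.84 as a log2 change (SE 0.18, limma adjusted p 0.00302). These rest on 46 to 94 reads per library. Ccna2, the A-type cyclin of mitotic cells, had 1575 and 1666 in control and 1150 and 1330 in cKO (-0.39, SE 0.07, limma adjusted p 0.000767). The groups of Ccna2 did not overlap, the higher cKO library standing at 1330 and the lower control at 1575. Exosc9, which overlaps Ccna2 by 510 exon bases on the other strand, changed by -0.08 (SE 0.07, limma adjusted p 0.34).

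Of the B-type cyclins, the partners of CDK1 at M phase entry, Ccnb1 and Ccnb2 rose and Ccnb3 did not pass. Ccnb2 had normalised counts of 1853 and 1826 in control and 2324 and 2601 in cKO (log2 change 0.42, SE 0.06, limma adjusted p 0.000122). Ccnb1, the essential mitotic cyclin, had 1698 and 1602 against 1858 and 1953 (0.21, SE 0.05, limma adjusted p 0.00877). Neither gene's groups overlapped, and the change of Ccnb1 was the smallest of the 7. Ccnb3 had 1589 and 1339 in control and 1408 and 1562 in cKO (0.02, SE 0.08), with overlapping groups. Processed copies of Ccnb1, Ccnb2 and Ccnd3 are annotated (Ccnb1-ps, Ccnb2-ps and Ccnd3-ps) and had at most 120, 12 and 66 reads in a library. These counts do not show how many reads match a gene and its copy equally, or how such reads were counted.

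Leaving out any single library of the comparison kept 6 of these calls. Ccnb1 was lost without control 2 (log2 change 0.17, limma adjusted p 0.118), and in that fit Ccnd2 was called instead (0.21, limma adjusted p 0.0483). The calls also depended on the variance model and on the second kit: without a mean trend in limma's variance prior, Ccna2 (limma adjusted p 0.083), Ccnb1 (0.115) and Ccnb2 (0.0577) were no longer called, and 4 cyclins, all lower, remained. With all cKO and both control types of P16 in 1 fit and the kit as a covariate, 3 cyclins were called, where 13.6% of all genes were: Ccnd1 (log2 change -0.62, SE 0.14, limma adjusted p 0.0148), Ccne1 (-0.42, SE 0.11, 0.0279) and Ccnb1 (0.36, SE 0.10, 0.0335). In that fit Ccnb2 stood at 0.31 (limma adjusted p 0.0888), Ccne2 at -0.39 (0.111), Ccna1 at -0.48 (0.486) and Ccna2 at -0.09 (0.698). All changes of that fit assume that both control types are alike apart from kit and run, which was not tested.

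Against Cre control at P16, where 9.07% of all genes were called, 1 of the 10 was called. Ccnb3 rose, with normalised counts of 574 to 760 in the 4 Cre control libraries and 1280, 1160 and 1071 in cKO (log2 change 0.82, SE 0.12, limma adjusted p 0.0367). Ccnb1 had 1130 to 1424 in Cre control and 1522, 1610 and 1755 in cKO (0.42, SE 0.11, limma adjusted p 0.0503). Ccnd1 had 1256 to 1493 in Cre control and 869, 961 and 1153 in cKO (-0.44, SE 0.12, limma adjusted p 0.0537). For these 3 genes and for Ccne1 (-0.30, SE 0.12, limma adjusted p 0.115) no cKO library overlapped a Cre control, as held for 30.1% of all genes tested. The median log2 change of the 10 was -0.04, beside -0.04 for all genes. In this table cKO libraries 1 and 2 come from the first kit and all Cre controls from the second, so for those libraries kit and genotype cannot be told apart. The call of Ccnb3 was lost when any of the Cre control libraries or cKO 1 or 2 was left out, but in each of those fits 0 genes of the whole table were called, and its log2 change stayed between 0.76 and 0.89. Leaving out cKO 3, the only cKO library of the second kit, gave 6 cyclins, in a fit that called 9427 of 19046 genes.

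The third cKO library shares its kit with the Cre controls and can be set beside them, without a test since it is a single library. At P16 it lay above all 4 Cre controls for 3 cyclins, below them for 2 and within their range for 5; of all genes tested 24.0% lay above all 4 and 30.0% below. For Ccnd1 it had 1153 normalised counts, below the lowest Cre control at 1256, and for Ccne1 249, below the lowest at 266. Both are on the same side as in the first kit. For Ccnb1 it had 1755, above the highest Cre control at 1424, also the side of the first kit, and Ccnb3 (1071 against at most 760) and Ccnd3 (786 against at most 697) were higher there as well. For Ccna2 it had 1304, while the Cre controls had 1029, 1011, 1004 and 1341, so that its log2 difference from their mean was 0.26, the opposite sign to the first kit. Ccne2 (1281 in a range of 1120 to 1771), Ccna1 (66.2 in a range of 26.3 to 149), Ccnb2 (1698 in a range of 1263 to 1822) and Ccnd2 (2750 in a range of 2184 to 2815) lay among the Cre controls. Sequencing run differs within the Cre controls too: only Cre control 1 shared the run of the third cKO library, with 1265 normalised counts of Ccnd1, 313 of Ccne1, 1192 of Ccnb1 and 1029 of Ccna2.

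The Cre controls of P16 differed most among themselves in Ccna1. Libraries 1 to 4 had 149, 58.0, 98.4 and 26.3 normalised counts of Ccna1, and their summed pachytene markers were 50715, 33389, 43508 and 27847 in the same order. The library with the least Ccna1 thus had the lowest pachytene sum, and the one with the most Ccna1 the highest. The same Cre control 4 had the most Ccna2 (1341) and the highest spermatogonial sum of the 4 (17170, against 13443 to 15244), and its per-length ratio of Ccna2 to Ccna1 was 23.0 against 3.09 to 7.83 in the others. Its erythroid sum was 2275, against 328 to 515 in the other Cre controls. The part of cell make-up in these differences was not tested.

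Whether the cKO effect on the cyclins differed between the 2 stages was tested in the first kit as that at P16 minus that at P14, on log2 CPM. Tamoxifen was given on P12 and P13 at both stages, and Ythdc2 itself differed by -0.72 (SE 0.11, limma adjusted p 0.00822). Stage, time since tamoxifen and degree of Ythdc2 loss thus cannot be told apart in this test. Of the 10 cyclins 3 were called, all lower, where 7.39% of all genes were called. Ccnd1 differed by -0.99 (SE 0.10, limma adjusted p 0.00106), Ccne1 by -0.63 (SE 0.13, 0.0245) and Ccne2 by -0.57 (SE 0.10, 0.0155). The first acts in G1 and the other two at entry into S phase. Ccna2 came next at -0.40 (SE 0.11, limma adjusted p 0.0542) and Ccnb2 stood at 0.35 (SE 0.12, 0.115); Ccna1, at -1.09, had an SE of 0.59 (0.289). The median of the 10 was -0.19, beside -0.00196 for all genes. In the same test 3 of 10 spermatogonial and 5 of 10 early meiotic markers were called lower, and 2 of 8 Sertoli and 1 of 5 macrophage markers higher; their part in the cyclin differences was not tested. Leaving out any of the 4 control libraries left 1 cyclin called, Ccnd1, while the genes called in all went from 1373 to between 284 and 616. Leaving out cKO 1 of P16 ended the call of Ccne1 (393 genes called), and leaving out cKO 1 or 2 of P14 gave 5 cyclins (3199 and 1299 genes called). Over these fits the difference of Ccne1 stayed between -0.73 and -0.56 and that of Ccne2 between -0.71 and -0.46.

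In control testes 6 of the 10 cyclins changed from P14 to P16 where 20.0% of all genes did. Ccna1 rose most: 0.62 ± 0.19 CPM (SD, n = 2) at P14 became 3.41 ± 0.075 at P16 (log2 change 2.49, SE 0.42, limma adjusted p 0.00287). At P14 this was 16 and 10 reads in the 2 libraries. Ccnb2 (0.35, SE 0.09, limma adjusted p 0.0216) and Ccne2 (0.25, SE 0.07, 0.043) rose by less. Ccnd3 (-0.38, SE 0.08, limma adjusted p 0.00976), Ccnd2 (-0.36, SE 0.07, 0.00616) and Ccnb1 (-0.21, SE 0.06, 0.0359) fell. With Ccna1 rising and Ccna2 at -0.22 (SE 0.08, limma adjusted p 0.0681), the per-length ratio of Ccna2 to Ccna1 went from 46.5 and 71.6 in the P14 libraries to 8.21 and 8.43 at P16. Of the 10 pachytene markers 9 rose between the same libraries, with a median log2 change of 1.78. Markers of spermatogonia (3 of 10), Sertoli (4 of 8), peritubular myoid (4 of 4), macrophage (3 of 5), endothelial (1 of 3) and erythroid cells (3 of 3) fell, and 1 of 10 early meiotic and 1 of 5 Leydig markers rose. Their part in the cyclin changes was not tested. Leaving out control 1 of P14 or control 1 of P16 left Ccna1 as the sole cyclin called, and leaving out control 2 of P16 left 3; the genes called in all went from 3714 to 2034, 1640 and 1810.

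In cKO testes of the first kit 7 of the 10 changed from P14 to P16, where 29.8% of all genes did. Ccna1 (1.40, SE 0.42, limma adjusted p 0.0318) and Ccnb2 (0.70, SE 0.09, 0.000402) rose. Ccnd1 fell by 0.89 on the log2 scale (SE 0.07, limma adjusted p 5.50e-05), Ccna2 by 0.62 (SE 0.08, 0.000342), Ccne1 by 0.57 (SE 0.09, 0.00166), Ccnd3 by 0.37 (SE 0.08, 0.00781) and Ccne2 by 0.32 (SE 0.07, 0.00937). Ccne2 thus rose in control and fell in cKO, and that difference between the genotypes is the one tested above. Between these libraries 9 of 10 pachytene markers rose, and 7 of 10 spermatogonial, 5 of 10 early meiotic and 2 of 3 erythroid markers fell, and of 8 Sertoli markers 1 rose and 2 fell; their part was again not tested. The call of Ccna1 in cKO was lost when cKO 1 of P14 or any library of P16 was left out; the other 6 calls held.

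In Cre control testes, measured with the second kit, 5 of the 10 changed where 11.8% of all genes did. Ccna1 rose (log2 change 2.79, SE 0.55, limma adjusted p 0.00921), while Ccna2 (-0.68, SE 0.14, 0.0124), Ccnb3 (-0.55, SE 0.14, 0.0255), Ccnb1 (-0.47, SE 0.12, 0.0243) and Ccnd1 (-0.41, SE 0.11, 0.0394) fell. In control testes of the first kit Ccna2 (-0.22), Ccnb3 (-0.20) and Ccnd1 (0.09) did not pass. Conversely Ccnb2 (0.31), Ccnd2 (-0.27), Ccnd3 (-0.19) and Ccne2 (-0.19), which were called in control, did not pass in Cre control. Of the markers 8 of 10 pachytene ones rose, while 3 of 9 spermatogonial, 1 of 10 early meiotic, 2 of 8 Sertoli and 2 of 4 peritubular myoid ones fell, with no test of their part. Sequencing run differs here too, since 3 of the 4 P16 libraries are from a later run. Within the run that holds both stages P16 has a single library, whose spread is assumed to be that of the other groups; there Ccna1 was called, and the log2 changes of the other four were -0.75 (Ccna2), -0.47 (Ccnb3), -0.49 (Ccnb1) and -0.48 (Ccnd1). Leaving out Cre control 1 of P14 left 0 cyclins called among 580 genes, Cre control 2 of P14 left 3, and Cre control 2 or 3 of P16 left 2, Ccna1 and Ccna2.

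**Figure D3:**
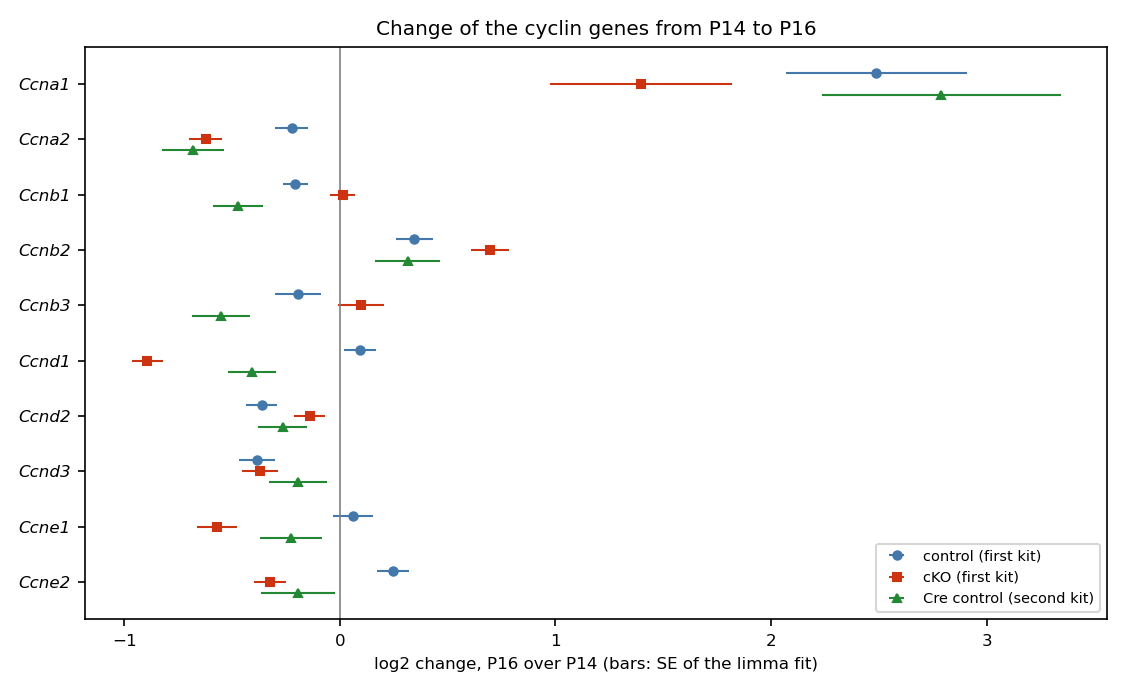
Log2 change of each cyclin gene from P14 to P16 in control and cKO (first kit) and in Cre control (second kit), with bars for the SE of the limma fit. Ccna1 rises in all 3 groups (2.49, 1.40 and 2.79), and Ccnd1 lies near 0 in control (0.09) but at -0.89 in cKO and -0.41 in Cre control.

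The genes whose log2 CPM followed Ccna1 and Ccna2 most closely over the 8 libraries of the first kit were looked up among 12247 genes with a mean of at least 100 reads. For Ccna1 these were Ccdc175 (Pearson r 0.997), 4930444P10Rik (0.994) and Ccdc74a (0.990), each highest in control P16 and next in cKO P16, as Ccna1 was. Mean log2 CPM of Ccdc175, for instance, was 1.11 in control P14, 1.41 in cKO P14, 3.42 in control P16 and 2.55 in cKO P16. For Ccna2 they were Rasd2 (r 0.993), Kif1c (0.992) and Iqgap2 (0.992), each lowest in cKO P16. The 8 libraries share stage and genotype steps, so these values describe a shared pattern over 4 groups and carry no test.

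The partners and regulators of the cyclins were examined as a list of 39 genes, of which 38 matched a gene ID and 37 passed the filter in the P16 comparison with control. Of these 20 were called, 8 higher and 12 lower, with a median log2 change of -0.09. Among all genes tested 38.6% were called, 18.6% higher and 19.9% lower. None was called at P14. The CDKs themselves moved little: Cdk1 rose by 0.16 (SE 0.05, limma adjusted p 0.0227) and Cdk2 fell by 0.13 (SE 0.05, 0.0486), while Cdk4 and Cdk6 did not pass. Among 7 CDK inhibitors Cdkn1a (p21) rose, from 52.0 and 60.5 normalised counts in control to 92.2 and 101.5 in cKO (log2 change 0.78, SE 0.18, limma adjusted p 0.00441), and Cdkn2d rose by 0.26. Cdkn2a fell, from 342 and 365 to 223 and 227 (-0.65, SE 0.10, limma adjusted p 0.000225). The other 4 inhibitors did not pass.

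Of the 6 genes listed as parts of the ubiquitin ligases that remove cyclins, 4 were called and all 4 were lower, where 19.9% of all genes were. The largest fall was that of Fbxo5 (EMI1), which is an inhibitor of the anaphase-promoting complex and so protects A- and B-type cyclins: 510 and 477 normalised counts in control became 262 and 235 in cKO (log2 change -0.99, SE 0.09, limma adjusted p 7.27e-06). Fbxw7, which marks cyclin E for destruction, had 2439 and 2282 against 1784 and 1858 (-0.37, SE 0.05, limma adjusted p 0.000148). Of 12 transcription regulators tested, 5 fell and 4 rose, where 19.9% and 18.6% of all genes did. E2f1, an activator of S phase genes that include the E-type cyclins, went from 465.5 and 433 to 249 and 231 (-0.90, SE 0.09, limma adjusted p 1.52e-05), E2f2 fell by 0.82 on the log2 scale (SE 0.13, 0.000322), and Mybl2 (B-MYB) by 0.66 (SE 0.10, 0.00024). Mybl1 (A-MYB), the MYB factor of pachytene spermatocytes and itself 1 of the pachytene markers, rose from 3449 and 3488 to 4283 and 4754 (0.38, SE 0.05, limma adjusted p 0.000116). The pocket proteins that repress E2F targets, Rbl1 (0.37) and Rbl2 (0.24), rose too, as did Spdya (0.26), an activator of CDK2 at meiotic telomeres.

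With the kit as a covariate over both control types, Fbxo5 (-0.60, limma adjusted p 0.0321), Fbxw7 (-0.29, 0.0159) and E2f1 (-0.75, 0.00812) were called among the 12 regulators named above by rule, and the other 9 were not. Without a mean trend in limma's variance prior 4 of the 12 stayed called, Cdkn1a (limma adjusted p 0.0445), Cdkn2a (0.0366), Fbxo5 (0.0353) and E2f1 (0.0347), and 8 did not, among them Fbxw7 (0.0538), E2f2 (0.0529), Mybl2 (0.0526) and Mybl1 (0.0618). Against Cre control at P16, 4 of the 37 were called, where 9.07% of all genes were: E2f1 (-1.29, SE 0.28, limma adjusted p 0.0413), E2f4 (-0.59, 0.037) and Cdc20 (-0.51, 0.0444) fell and Rb1 rose (0.67, 0.0367). There Cdkn1a stood on the other side, at -0.56 (SE 0.27), as did Fbxw7 at 0.06 (SE 0.11), and neither was called. Fbxo5 was near 0 (-0.09, SE 0.12). The rest of the 12 kept their sign. For Cdkn1a the third cKO library had 156 normalised counts, within the Cre control range of 129 to 166. In the test of the difference between the stages 4 of the 37 were called, all lower, where 7.39% of all genes were called: Fbxo5 (-0.9996, SE 0.13, limma adjusted p 0.00311), E2f1 (-0.62, SE 0.12, 0.0195), Fbxw7 (-0.35, 0.0246) and E2f4 (-0.34, 0.0398).

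**Figure D4:**
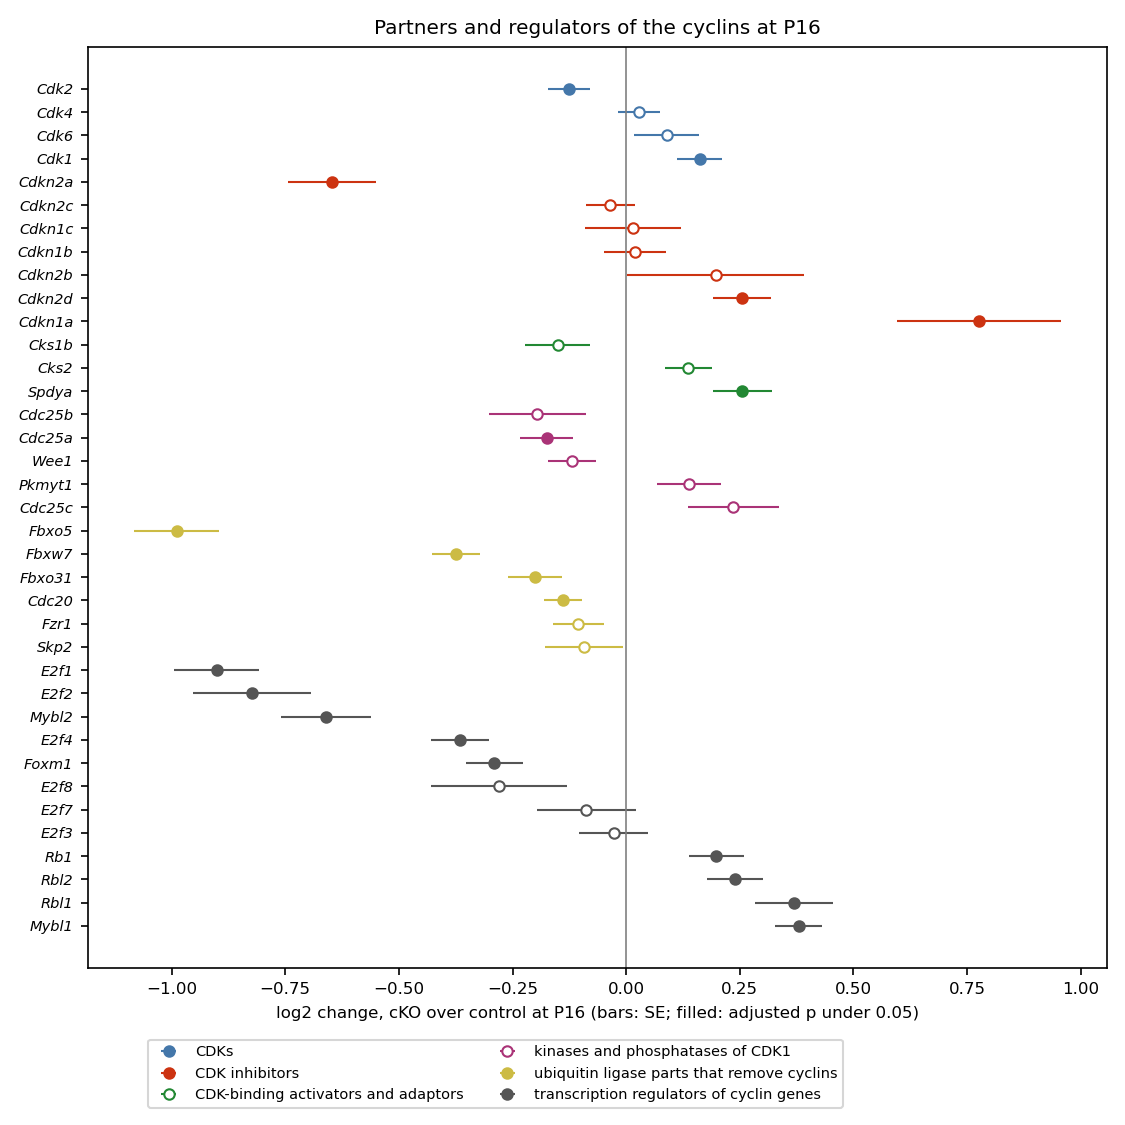
Log2 change, cKO over control at P16 in the first kit, of the 37 tested partners and regulators of the cyclins, coloured by role, with bars for the SE of the limma fit and filled points for a limma adjusted p under 0.05. Filled points lie to the left for Fbxo5, E2f1, E2f2, Mybl2 and Cdkn2a and to the right for Cdkn1a, Mybl1 and Rbl1.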

How the data were processed

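The 4 deposited tables hold normalised counts per gene (signal), which per the submitters' processing notes involved Trim Galore, STAR, HTSeq and DESeq2 and the build GRCm39 (mm39); no versions are given there. The deposited values were whole multiples of what 1 read is worth in 100% of values, within 0.05 of a read, so read counts were recovered; 53.4% to 63.0% of reads lay in the 4 summary rows of a table and were left out. Gene names and exon lengths came from GENCODE M21 (build GRCm38), and no coordinates of it are given. Within a table, limma 3.58.1 (R 4.3.3) was fitted with a mean-variance trend to log2(value + 1) of genes that reached 10 in 2 or more libraries, so fold changes of low genes are understated; stages were compared within a kit on log2 CPM (TMM, edgeR 4.0.16, prior count 1). Benjamini-Hochberg adjusted p under 0.05 over all genes counted as called. Other pseudocounts, filters, scalings, edgeR, DESeq2 1.42.0, the kit as a covariate and leaving out each library were tried. The 12 regulators named are the up to 6 largest rises and 6 largest falls called at P16 against control. The genes and lists were chosen with earlier results of these data known. The fits were tested on simulated data with the same dispersion for all genes and no kit or run effect. That simulation therefore does not cover comparisons that mix kits or groups that vary more.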

Additional observations from a re-analysis of the deposited data

Results flagged for a closer look

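Among the 4 Cre control libraries of P16, library 4 stood apart from the other three in Ccna2, with 1341 normalised counts against 1004, 1011 and 1029; 11 such groups of 4 values were examined, and chance flags about 1 in 20. The effect of the knockout differed between P16 and P14 by test for Ccnd1 (-0.99 on the log2 scale), Ccne1 (-0.63) and Ccne2 (-0.57).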

How the results depend on the processing

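Of 1306 values of single cyclins under alternatives, 1176 kept their side of the threshold, 93 lost a call, 37 gained one and 0 reversed a called direction. Counts of cyclins called moved as follows, and the cause was not tested unless fewer genes or samples show it. At P16 against control, 7 became 4 without a variance trend and 3 with the kit as a covariate. Against Cre control at P16, 1 became 3 with a pseudocount of 10, a minimum value of 50, DESeq2 or the kit over both control types. It became 2 with TMM scaling, quantile normalization or edgeR, and 0 without a trend. With the kit as a covariate within the table the cKO side is a single library, so no count is given. The 3 calls of the stage difference became 0 without a trend. For P16 against P14, the 6 calls in control became 3 without a filter and 1 without a trend, and the 5 in Cre control became 0 without a filter, 0 without a trend and 1 in the single run with both stages. Leaving out each library gave 0 to 0 (P14) and 7 to 7 (P16, with Ccnd2 in place of Ccnb1 without control 2) cyclins called against control, 0 to 2 and 0 to 6 against Cre control, 1 to 5 for the stage difference, and 1 to 7, 6 to 7 and 0 to 5 for P16 against P14 in control, cKO and Cre control. Quantile normalization moved the median of all genes to 0.10 in both Cre control tables.

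The replicate numbers pair no samples by the labels: same-numbered libraries deviated together with r 0.203 at P14 and 0.0798 at P16, over 2 pairs each. With the replicate number as a block the cyclins called were 0 and 7 against control, 2 and 0 against Cre control (where the block takes out cKO 3 at P14, so that kit and genotype cannot be told apart there, and Cre control 4 at P16), 4 for the stage difference, and 6, 7 and 3 for P16 against P14 in control, cKO and Cre control.

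Depth limits Ccna1 most, at 7 to 130 reads per library. Groups of 2 libraries limit every comparison in the first kit.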
